A study of Mus musculus with 8 samples.

Results

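The solute carrier (SLC) genes that mouse macrophages express were followed through alternative activation by IL-4. The tables held 341 gene symbols made of Slc, a family number, the letter a and a member number, among 23354 symbols in all. A gene counted as expressed at a mean of at least 1 FPKM over the 8 libraries (FPKM scales the sequenced fragments of a gene by transcript length and library size), which 163 SLC symbols reached, and 178 did not. Of those 163, 13 were excepted: the arginine carriers Slc7a1 and Slc7a2, the iron genes Slc40a1, Slc11a1, Slc11a2 and Slc39a14, the glucose and monocarboxylate carriers Slc2a1, Slc16a1 and Slc16a3, the carnitine carrier Slc25a20, and Slc7a11, Slc3a2 and Slc7a5. The remaining 150 genes of 41 families are described here. Since the mean FPKM chose them, their levels are a description with no test. The name holds for 146 of them, while Slc4a1ap, Slc7a6os, Slc9a3r1 and Slc9a3r2 carry an SLC symbol but encode no transporter. Subfamilies lettered otherwise, such as Slc35b, are outside the rule. Just inside the limit lay Slc45a3 at 1.01, Slc6a9 at 1.04 and Slc13a5 at 1.09 FPKM, and just outside lay Slc2a3 at 0.809, Slc2a4rg-ps at 0.739 and Slc25a42 at 0.711 FPKM.

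SLC proteins are membrane carriers that move amino acids, sugars, ions, metals, vitamins and metabolites by facilitated diffusion, by exchange, or coupled to sodium or proton gradients. The SLC25 family works in the inner mitochondrial membrane, SLC30 proteins take zinc out of the cytosol and SLC39 proteins bring it in. In macrophages, carriers of the lysosome export what digestion of engulfed material releases, and amino acid and metal carriers are part of the answer to cytokines.

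Bone marrow cells of male 8-week-old mice on the C57BL/6J background were grown into macrophages over 7 days with L929-cell supernatant, which carries the growth factor M-CSF, and sequenced as RNA of whole cultures. The 4 groups follow the sample titles: macrophages with a floxed Ern1 gene (Ern1f/f) as control or with IL-4 at 20 ng/ml for 24 hours, and macrophages that also carry Cre recombinase from the myeloid Lyz2 locus (Ern1f/fLyz2-Cre) in both states. Ern1 encodes IRE1α, a sensor of endoplasmic reticulum stress. Every group, controls included, carries the floxed alleles, and each has 2 libraries, numbered 1 and 2. The labels do not say whether these came from separate animals, so p-values measure the spread between these libraries, which may be technical. A genotype field in the labels disagrees with the title in 4 of the 8 libraries (Ern1f/fLyz2-Cre control 1 and IL-4 1, Ern1f/f control 2 and IL-4 2): there, all libraries numbered 1 read Ern1f/f and all numbered 2 read Ern1f/fLyz2-Cre. Replicate number and genotype by that field therefore cannot be told apart.

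The macrophage label held, with 8 of 9 listed markers in the tables and all 8 at 1 FPKM or more in at least 2 libraries, Csf1r at 356 to 869.9 FPKM and Cd68 at 669 to 1001 FPKM. Lyz2, the locus that carries Cre, was less steady, at 1572 to 18114 FPKM. It was lower under the title Ern1f/fLyz2-Cre than under Ern1f/f in each of the 4 matches of number and treatment: 10949 against 18114 FPKM in control 1, 5780 against 8902 in IL-4 1, 2171 against 17415 in control 2, and 1572 against 11961 in IL-4 2. Arg1, an enzyme that IL-4 induces, measured 0.0444 to 1.15 FPKM in control and 62.3 to 136 FPKM in IL-4 libraries. Ern1 measured 9.11 to 11.5 FPKM under the title Ern1f/f and 7.43 to 14.3 FPKM under Ern1f/fLyz2-Cre, and a gene-level value also spans exons outside a floxed segment, so it does not check the deletion. The libraries stood apart by number. Fibroblast markers (7 of 9 at 1 FPKM or more in 2 libraries, Col1a1 among them) summed to 82.0 to 469 FPKM in number 1 and 2.68 to 7.89 in number 2. B cell markers (1 of 5) summed to 0.791 to 2.37 and 5.29 to 16.8 FPKM, and T or NK cell markers (1 of 6) to 2.54 to 9.58 and 0.964 to 2.77 FPKM. No neutrophil, erythroid, mast cell or dendritic marker reached 1 FPKM in 2 libraries. In whole cultures, fewer cells of a type and less RNA per cell cannot be told apart.

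The expressed carriers spanned from about 1 FPKM to 401 FPKM, with a median of 9.28 FPKM. At least 10 FPKM was reached by 70 genes and at least 100 FPKM by 7, while 41 lay under 5 FPKM. Mitochondrial carriers made up 33 of the 150 genes and 31.4% of their summed FPKM. Slc25a5, an exchanger of ADP and ATP across the inner mitochondrial membrane, had the highest mean, followed among mitochondrial carriers by the phosphate carrier Slc25a3 at 235 FPKM, the ADP/ATP exchanger Slc25a4 at 103 FPKM and Slc25a39, linked to mitochondrial glutathione, at 96.9 FPKM. The ADP/ATP exchangers are close paralogs, and how reads that map to several places were assigned is not given in the sources used here, so the split between them is uncertain.

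Outside mitochondria the highest means belonged to carriers of organic anions, the lysosome and amino acids. Slc13a3, a sodium-coupled carrier of dicarboxylates, had a mean of 316 FPKM that came almost wholly from the libraries numbered 2. Slc15a3, which moves histidine and peptides out of lysosomes, had 294 FPKM, the heme carrier Slc48a1 184 FPKM and the taurine carrier Slc6a6 153 FPKM. The zinc importer Slc39a1 followed at 90.1 FPKM and Slc31a2, a copper transporter homologue, at 84.4 FPKM. Slc6a6 was also the gene that the authors' confidence intervals resolved best, whose limits lay 1.10% of its FPKM to either side, against a median of 6.46% and the widest of 26% for Slc6a13.

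Leading members of the other larger families lay mostly under 100 FPKM. Slc37a2, a sugar-phosphate exchanger of the endoplasmic reticulum, led family 37 at 78.1 FPKM and the equilibrative nucleoside carrier Slc29a1 led family 29 at 60.6. The fatty acid carrier Slc27a1 had 36 FPKM, Slc35a4 of the nucleotide sugar family 35, the neutral amino acid exchanger Slc7a8 34.2 and Slc38a10 30.9. The potassium-chloride cotransporter Slc12a4 led its family at 21 FPKM, the zinc exporter Slc30a5 at 19.1, the lysosomal amino acid carrier Slc36a1 at 15.9 and the anion exchanger Slc4a2 at 15. The hexose carrier Slc2a6 led its own at 22.6 FPKM, Slc16a10 at 17.3 and Slc26a11 at 11.4. In family 9 the highest symbol was Slc9a3r1 at 39.2 FPKM, a scaffold protein and no exchanger. The low end held Slc41a2, a magnesium carrier, at 9.3 FPKM and Slc22a4, a carrier of ergothioneine, at 3.88.

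**Figure D1:**
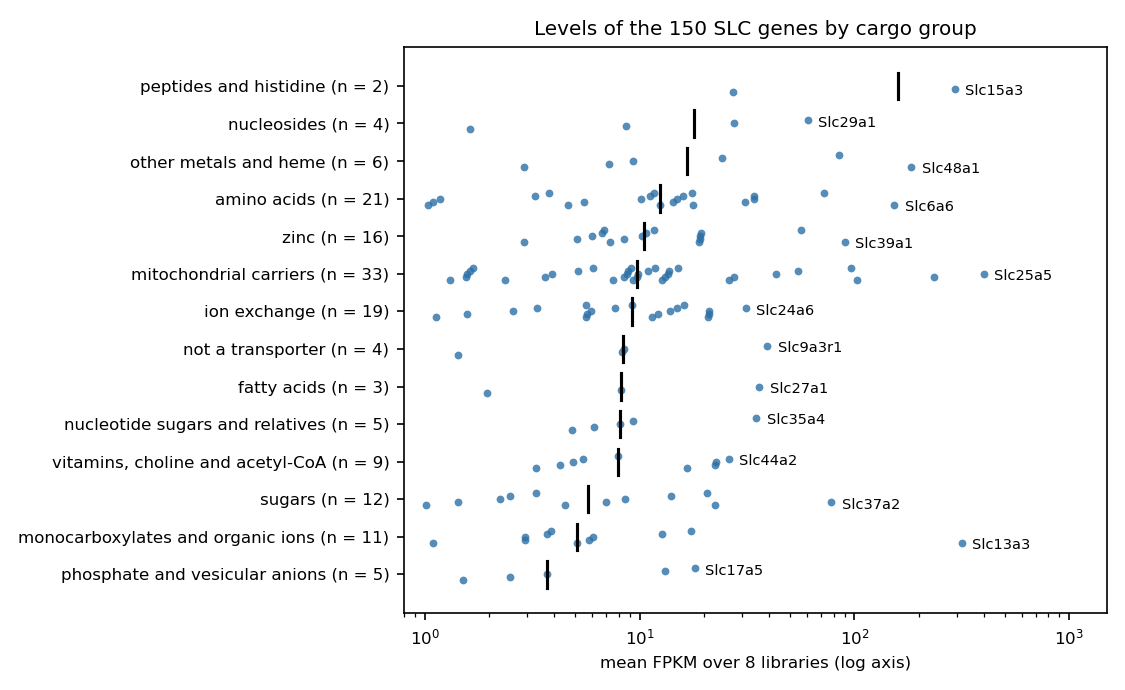
Mean FPKM over the 8 libraries (x axis, logarithmic) of each of the 150 genes (points), grouped by what the family carries (y axis, with the number of genes); the vertical bar is the median of the group and the highest gene is named. Slc25a5, Slc13a3 and Slc15a3 lie farthest to the right, while the medians of the larger groups lie between 5.14 and 12.4 FPKM.

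The main question put to these carriers was how they differ between IL-4 and control macrophages. On the scale of the test, described below, the zinc carrier Slc30a4, which loads zinc into vesicles, had the largest rise. With the replicate number taken into account, Slc36a2, a proton-coupled carrier of small amino acids, and the hexose carrier Slc2a6 rose too. So did the glutamine carrier Slc1a5 and Slc25a13, the aspartate/glutamate carrier of mitochondria. The scale understates the change of low genes, Slc36a2 among them, so the order of these rises is bound to it. In the same fit with the replicate number, the mitochondrial iron importer Slc25a37, the zinc importer Slc39a4 and the cationic amino acid exchanger Slc7a7 fell. Slc45a4, a proton-coupled carrier homologue, fell as well. Slc43a2, a carrier of branched-chain amino acids, was also lower, but kept that call in only 2 of 8 fits that left out a library. No carrier was called lower without the replicate number in the fit. Most carriers were not called either way: the median log2 difference over the 150 genes was -0.060, beside -0.027 over the 10934 genes tested.

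The test was limma on log2(FPKM + 1), with Benjamini-Hochberg adjusted p under 0.05 over all 10934 genes, and differences below are on that scale, which understates the change of low genes. Fitted on 4 group means alone it called 1 of the 150 genes, Slc30a4, where 0.841% of all genes were called. With the replicate number as a block it called 34 (22.7%), where 12.7% of all genes were called. Of these, 14 were higher, as 5.88% of all genes were, and 20 lower, as 6.86% were. Differences between the numbers correlated between the groups, at 0.688 to 0.827 over 6 pairs of groups, which is why both fits are given. Without regard to any model, 29 carriers were higher in the IL-4 library of all 4 pairs of like title and number (17% of all genes were) and 44 were lower (23.5%). All 34 called genes had one direction in the 4 pairs, but the same pairs entered the fit that called them. That shared direction is therefore a description and no separate evidence. All 4 IL-4 libraries stood above all 4 controls for 9 carriers (6.98% of all genes) and below them for 17 (7.23%).

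Fewer libraries gave fewer calls. With the block, 11 were called without Ern1f/f control 1, 14 without Ern1f/f IL-4 1, 15 without Ern1f/fLyz2-Cre control 1, 12 without Ern1f/fLyz2-Cre IL-4 1, 13 without Ern1f/f control 2, 15 without Ern1f/f IL-4 2, 24 without Ern1f/fLyz2-Cre control 2 and 18 without Ern1f/fLyz2-Cre IL-4 2. Slc1a5, Slc25a13, Slc25a37, Slc30a4, Slc36a2, Slc39a4, Slc45a4 and Slc7a7 were called in all 8 of these fits. The others lost the call in at least 1 of them. Many lost it in most of these fits, among them Slc39a10, Slc43a2, Slc16a10, Slc12a9, Slc15a4, Slc39a13, Slc44a2 and Slc6a12. Slc22a4, Slc25a5, Slc2a8, Slc37a3 and Slc4a7 lost it in every one. All 34 kept their direction in each, though these fits share most of their libraries with the fit that chose the genes. A lone library of a group was taken to vary like those of the other groups. Without the block, the call of Slc30a4 was lost without Ern1f/f control 1 (adjusted p = 0.0688), Ern1f/f IL-4 1 (0.0605), Ern1f/fLyz2-Cre IL-4 1 (0.0621), Ern1f/f control 2 (0.0653) or Ern1f/fLyz2-Cre IL-4 2 (0.0635), at a log2 difference of 1.67 to 1.76. Markers of other cell types moved with treatment too: the sum of fibroblast markers was 171 and 82.0 FPKM in control and IL-4 of Ern1f/f number 1, 469 and 213 in Ern1f/fLyz2-Cre number 1, 7.89 and 7.71 in Ern1f/f number 2, and 3.62 and 2.68 in Ern1f/fLyz2-Cre number 2. The sums of B cell and of T or NK cell markers were lower in the IL-4 library of each pair as well, the latter at 8.10 and 2.54, 9.58 and 2.96, 2.77 and 1.92, and 1.88 and 0.964 FPKM in the same order, and their part in the results below was not tested.

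**Figure D2:**
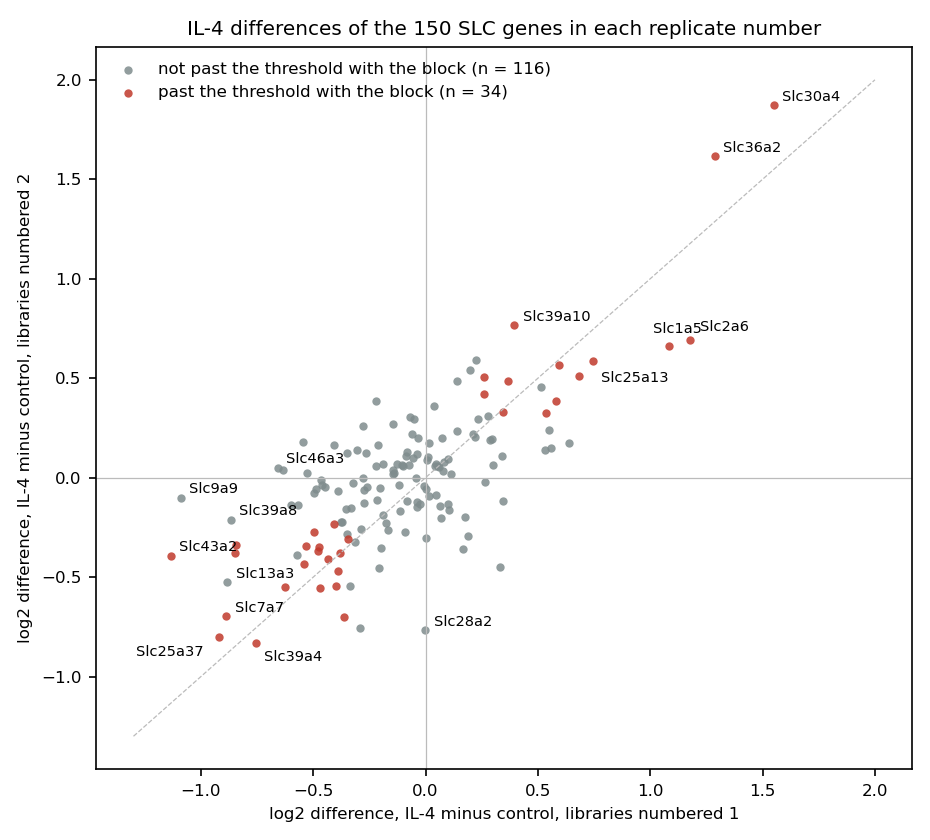
Log2 difference between IL-4 and control libraries, averaged over the title genotypes, in libraries numbered 1 (x axis) and 2 (y axis) for each of the 150 genes (points); red marks the 34 genes past the threshold with the block and the dashed line marks equal differences. Slc30a4 and Slc36a2 lie above 1 on both axes, and Slc25a37, Slc39a4 and Slc7a7 below -0.6 on both.

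Zinc carriers moved in both directions. Of 16 measured, 3 rose (Slc30a4, Slc39a6, Slc39a10), 2 fell (Slc39a4, Slc39a13) and 11 were not called, with a median log2 difference of 0.016. These counts were the same under median-ratio scaling and quantile normalization of the libraries. Beside them and the group counts below, the block called 5.88% of all genes higher and 6.86% lower. Slc30a4 (chr2:122681239-122702663 in mm10) measured 2.39 and 11 FPKM in the control and IL-4 libraries of Ern1f/f number 1, 2.36 and 10.4 in Ern1f/f number 2, 3.61 and 10.2 in Ern1f/fLyz2-Cre number 1, and 2.18 and 11.6 in Ern1f/fLyz2-Cre number 2. Every IL-4 library exceeded every control, and the difference was 1.71 (SE 0.12, adjusted p = 0.00112 with the block and 0.0103 without). Below, values of a gene are given as control and IL-4 in this same order of 4 pairs.

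The importers Slc39a6 and Slc39a10, which act at the plasma membrane, rose less. Slc39a6 measured 14.9 and 26, 16.6 and 22.1, 15.4 and 21, and 14.3 and 24.5 FPKM. Its IL-4 libraries lay above all controls, by 0.58 (SE 0.097, adjusted p = 0.0141 with the block and 0.0819 without). For Slc39a10 the values were 6.93 and 10.7, 3.82 and 6.94, 7.65 and 9.13, and 4.4 and 8.47 FPKM, higher in each pair, though the control values of number 1 reached into the IL-4 values of number 2. That difference was 0.58 (SE 0.12, adjusted p = 0.0258 with the block and 0.372 without).

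Slc39a4, an importer known from intestinal zinc uptake, was lower in each pair but lay on separate levels in the replicate numbers. It measured 3.47 and 1.82, 30.9 and 15.6, 3.13 and 1.3, and 23.2 and 13.8 FPKM. The libraries numbered 2 exceeded those numbered 1 whatever the treatment, and within each number IL-4 was lower. The difference was -0.79 (SE 0.080, adjusted p = 0.0032 with the block and 0.842 without). Slc39a13, a zinc carrier of intracellular vesicles, measured 15.5 and 12.7, 30.6 and 18.6, 17.1 and 12.2, and 27.6 and 16.4 FPKM, a difference of -0.53 (SE 0.10, adjusted p = 0.0224 with the block and 0.476 without). Slc39a8, a zinc and manganese importer, measured 4.02 and 1.87, 3.24 and 2.73, 4.17 and 1.72, and 3.02 and 2.41 FPKM. It was lower in all 4 pairs without overlap, yet not called, with a difference of -0.54 (SE 0.15, adjusted p = 0.0651 with the block and 0.214 without). Slc39a1 and Slc39a7, the most abundant zinc carriers, had differences of 0.023 and -0.038 and were not called either.

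**Figure D3:**
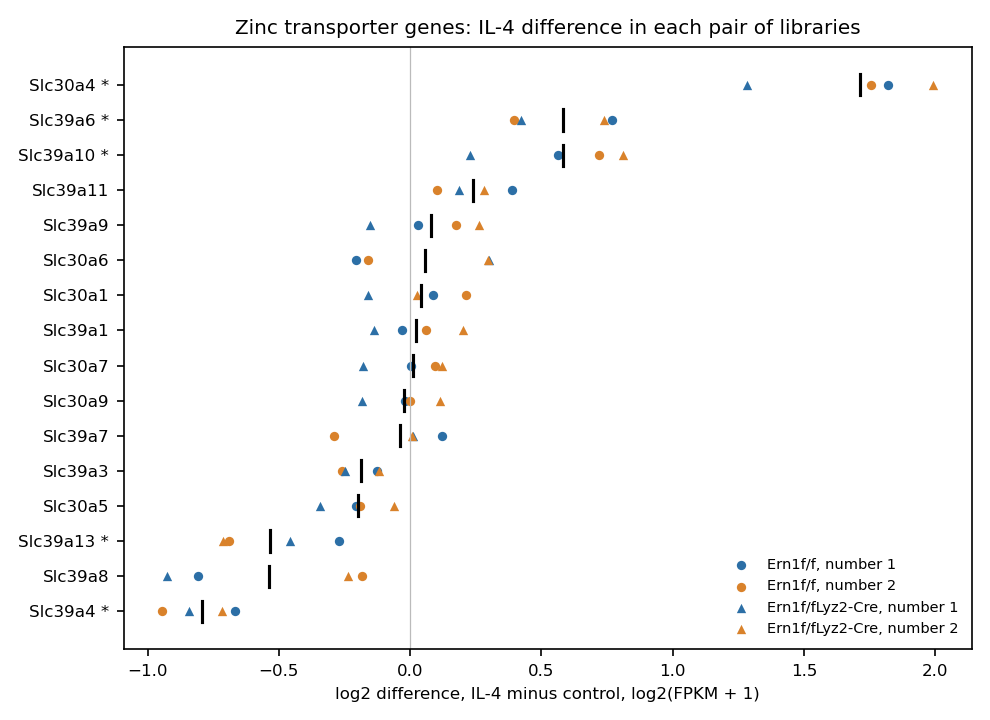
Log2 difference between IL-4 and control, on the log2(FPKM + 1) scale (x axis), for the 16 zinc carrier genes (y axis) in each of the 4 pairs of libraries (circles Ern1f/f, triangles Ern1f/fLyz2-Cre, blue number 1, orange number 2); the black bar is the mean of the pairs and an asterisk marks genes past the threshold with the block. Slc30a4 stands alone above 1 in all 4 pairs, and Slc39a13, Slc39a8 and Slc39a4 lie left of 0 in every pair.

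Among 21 genes of amino acid carrier families, 3 rose and 2 fell with the block. Slc36a2 (chr11:55158468-55185077) measured 0.397 and 2.23, 2.71 and 9.25, 0.684 and 3.35, and 3.64 and 14.8 FPKM. It was higher with IL-4 in every pair and higher in number 2 than in number 1 in every group, so that the IL-4 value of number 1 in Ern1f/f lay under both controls of number 2. The IL-4 difference was 1.45 (SE 0.10, adjusted p = 0.00112 with the block and 0.408 without). Slc1a5 (chr7:16781346-16798274), through which glutamine and other neutral amino acids enter, measured 10.2 and 23.7, 8.47 and 14, 11.3 and 23.9, and 8.57 and 14.2 FPKM. The IL-4 libraries lay above every control, by 0.87 (SE 0.11, adjusted p = 0.00571 with the block and 0.187 without). Slc6a12, a carrier of betaine and GABA, measured 2.87 and 4.57, 18.2 and 20.5, 2.34 and 4.2, and 10.9 and 17.2 FPKM, a difference of 0.48 (SE 0.10, adjusted p = 0.0299 with the block and 0.878 without). The difference was the same in both fits of all 8 libraries and higher in each pair. In the fit without the block it was -0.094 without Ern1f/f control 1 and -0.0031 without Ern1f/f IL-4 2, where the numbers are no longer balanced.

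Both genes that fell carry amino acids across the plasma membrane. With median-ratio scaling the block gave 4 higher and 3 lower in this group, and with quantile normalization 4 and 2. Slc7a7 (chr14:54369442-54417702), which pairs with Slc3a2 to exchange cationic for neutral amino acids, measured 21.6 and 10.8, 16.6 and 9.9, 21.5 and 11.6, and 17.3 and 10.3 FPKM. All 4 IL-4 libraries were below all controls and lay within 9.90 to 11.6 FPKM, and the difference was -0.79 (SE 0.077, adjusted p = 0.00285 with the block and 0.0642 without). The locus shares 228 bases with Oxa1l, and the sources used here do not give the strand rule of the counting. In all, 19 carriers overlap another gene of the tables, 13 of them one at 1 FPKM or more, and their values are uncertain in that respect. Slc43a2 (chr11:75531694-75577572) measured 119.8 and 63.3, 58.6 and 45, 126 and 48.6, and 66.2 and 49.6 FPKM. The controls numbered 1 were highest, the groups overlapped across numbers, and the difference was -0.76 (SE 0.18, adjusted p = 0.0387 with the block and 0.353 without). Slc6a6, the most abundant of these genes, differed by -0.25, and Slc7a8 by -0.011, neither called.

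Sugar carrier families had 2 genes higher and 2 lower of 12. Slc2a6 (chr2:27021365-27027998), a hexose carrier of lysosomal membranes also called GLUT6, measured 9.47 and 26.2, 23.3 and 35.7, 11.4 and 23.3, and 18.4 and 32.6 FPKM. Each IL-4 library exceeded its control, with a difference of 0.94 (SE 0.14, adjusted p = 0.0105 with the block and 0.275 without). Slc37a3, a sugar-phosphate exchanger homologue, was higher by 0.34. Slc45a4, a proton-coupled carrier homologue, measured 15.1 and 10.8, 18.9 and 12.4, 15.6 and 8.51, and 18.1 and 12.2 FPKM and lay below every control with IL-4, with a difference of -0.59 (SE 0.080, adjusted p = 0.00789 with the block and 0.171 without). Slc2a8, an intracellular hexose carrier, had a difference of -0.32 (SE 0.078, adjusted p = 0.0456 with the block and 0.625 without).

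Mitochondrial carriers had 2 genes higher and 4 lower of 33, with 1 more lower under median-ratio scaling or quantile normalization. Slc25a13, also called citrin, measured 6.89 and 12.8, 6.88 and 9.55, 7.19 and 12.1, and 6.9 and 12.3 FPKM. No IL-4 library overlapped a control, and the difference was 0.67 (SE 0.092, adjusted p = 0.00818 with the block and 0.0652 without). Slc25a5 measured 313 and 413, 397 and 440.0, 310.5 and 495, and 347 and 489.9 FPKM, a difference of 0.43 (SE 0.088, adjusted p = 0.0272 with the block and 0.178 without), also without overlap. Slc25a37 (chr14:69241851-69285103), the importer mitoferrin-1, measured 7.77 and 4.07, 8.66 and 4.86, 10.4 and 4.53, and 13.1 and 6.62 FPKM. Every IL-4 library was below every control and the difference was -0.86 (SE 0.081, adjusted p = 0.00274 with the block and 0.0709 without). Its paralog Slc25a28, mitoferrin-2, differed by -0.33, the pyrimidine nucleotide carrier Slc25a33 by -0.51 and Slc25a30 by -0.42, each past the threshold with the block.

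Ion exchangers had 3 genes higher and 3 lower of 19. Slc12a4, a potassium-chloride cotransporter, measured 18.5 and 33.7, 13.9 and 18, 19.9 and 29.3, and 13.2 and 21.7 FPKM, higher with IL-4 in each pair and higher in number 1 than in number 2, with a difference of 0.60 (SE 0.10, adjusted p = 0.0142 with the block and 0.374 without). The bicarbonate cotransporter Slc4a7 was higher by 0.38. Slc26a11, a sulfate and chloride carrier, measured 20 and 11.8, 7.79 and 5.69, 22 and 10.6, and 7.62 and 5.72 FPKM, lower in each pair, with a difference of -0.61 (SE 0.12, adjusted p = 0.0221 with the block and 0.655 without). Slc12a9 and the mitochondrial sodium-calcium exchanger Slc24a6 fell, with differences of -0.47 and -0.41.

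The remaining groups are small and held mostly lower calls, where 5.88% of all genes were called higher and 6.86% lower. Of 11 genes of monocarboxylate and organic ion families none rose and 3 fell: Slc16a10, a carrier of aromatic amino acids and thyroid hormones, with 26.1 and 14.9, 18.4 and 13.9, 23.6 and 12, and 16.5 and 13.3 FPKM and a difference of -0.59 (SE 0.12, adjusted p = 0.0287 with the block and 0.189 without), Slc16a6, whose locus overlaps Arsg and LOC100503496 over 223 and 2504 bases, with -0.43 and Slc22a4 with -0.38. Of 9 vitamin and choline carriers none rose and 2 fell, the proton-coupled folate carrier Slc46a1 with -0.49 and the choline-transporter-like Slc44a2 with -0.44. The lysosomal histidine and peptide carrier Slc15a4 fell, at -0.42, while its relative Slc15a3 differed by 0.35 and was not called. The magnesium carriers parted, with Slc41a2 higher by 0.43 and Slc41a1 lower, at -0.38. Of the 6 genes of other metals and heme, 1 was lower with the block. Under median-ratio scaling 2 were lower, and under quantile normalization 0. No gene of the nucleoside, nucleotide sugar, fatty acid or phosphate families was called with the block. Under quantile normalization 1 of the 5 phosphate and vesicular anion genes was. Of the 4 symbols that encode no transporter, 0 were called with the block and 1 was higher under quantile normalization.

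**Figure D4:**
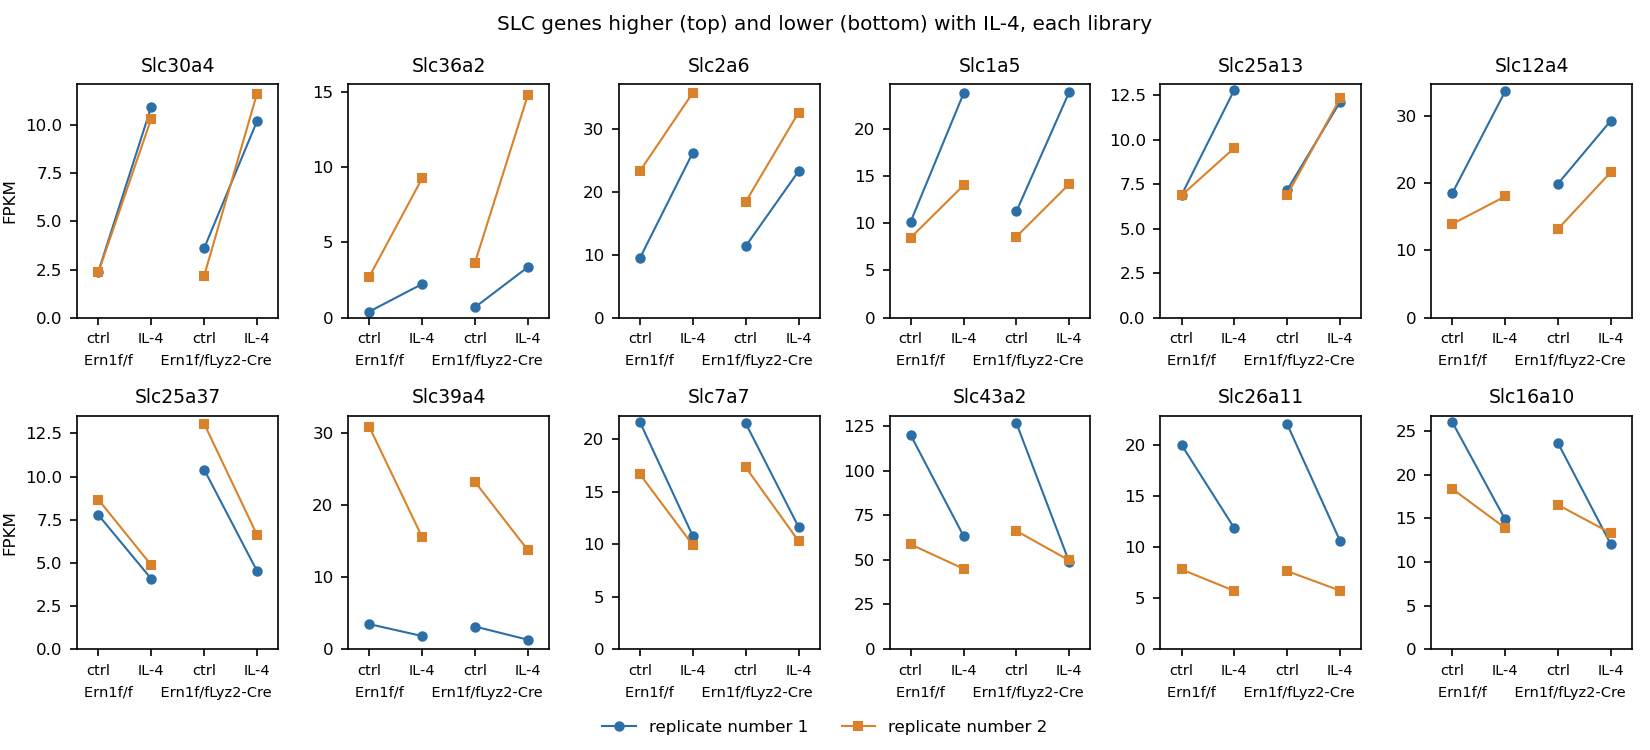
FPKM (y axis, from 0) of 6 genes higher (top row) and 6 lower (bottom row) with IL-4 in each of the 8 libraries; lines join the control (ctrl) and IL-4 library of one title genotype and replicate number (blue circles number 1, orange squares number 2). All 48 lines slope one way within their row, and Slc39a4 and Slc26a11 lie on separate levels in the replicate numbers. Slc36a2 is higher in number 2 within each group, though its ranges overlap.

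Other transporter genes of the SLCO, MFSD, ABC and related classes gave a point of reference. Of 40 tested, the block gave 1 higher (the mitochondrial Abcb8) and 2 lower (Abcc3, an exporter of conjugates, and Mfsd5), or 7.5% of that list, beside the 12.7% of all genes. Among the 13 excepted SLC genes 2 were higher and 4 lower.

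Ern1f/f and Ern1f/fLyz2-Cre macrophages, by title, were first compared in how each responded to IL-4. Slc30a4, Slc36a2 and Slc1a5 rose and Slc7a7, Slc39a4 and Slc25a37 fell in both, with the block. The fit without the block called 0 carriers in either (0.0% of all genes in Ern1f/f and 0.0549% in Ern1f/fLyz2-Cre; unadjusted p under 0.05 for 18 and 16 carriers). With the block, 6 were called in Ern1f/f, 3 higher and 3 lower, where 2.12% of all genes were called (1.26% higher and 0.86% lower), and 9 in Ern1f/fLyz2-Cre, 4 higher and 5 lower, where 3.32% were (1.79% and 1.53%). The 6 were those named, and all 6 were among the 9. Slc30a4 differed by 1.79 in Ern1f/f and 1.64 in Ern1f/fLyz2-Cre, and Slc25a37 by -0.76 and -0.96. Slc25a13 had 0.61 and 0.72, Slc45a4 -0.51 and -0.67, and Slc25a30 -0.27 and -0.58, called in the second alone. Without 1 library, the count in Ern1f/f was 0 without either control or IL-4 1 of that genotype, 1 without its IL-4 2, and 2 without either Ern1f/fLyz2-Cre IL-4 library. In Ern1f/fLyz2-Cre it was 2 without either of its controls, 0 without either of its IL-4 libraries, and 6 without either Ern1f/f control.

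The difference of the 2 responses was tested as an interaction and gave 0 calls among the carriers in both fits (0.0% of all genes). Unadjusted p was under 0.05 for 0 carriers without the block (0.174% of all genes). With the block this held for 1 (0.667%, beside 0.942% of all genes). The smallest p belonged to Slc30a6, a zinc carrier of the Golgi, on the higher and Slc25a30 on the lower side. Slc30a6 measured 5.97 and 5.04, 6.47 and 5.68, 6.0 and 7.61, and 4.87 and 6.22 FPKM, so IL-4 was lower in both Ern1f/f pairs and higher in both Ern1f/fLyz2-Cre pairs. The interaction was 0.48 (95% confidence interval 0.0037 to 0.96 with the block) for Slc30a6 and -0.31 (95% confidence interval -0.64 to 0.015 with the block) for Slc25a30. For Slc30a4 it was -0.15 (95% confidence interval -0.73 to 0.44 with the block), an interval that leaves room for responses differing in either direction. The other genes with the smallest p were Slc25a5 at 0.31, Slc46a1 at 0.27 and Slc25a17, a peroxisomal carrier, at 0.20 on the higher side, and Slc36a4 at -0.31, Slc25a43 at -0.24 and Slc30a1 at -0.22 on the lower side.

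Between the title genotypes themselves no carrier was called, in control cells, in IL-4 cells or over both, with or without the block. Limma called 0 genes in each (0.0%), apart from 1 gene outside the carriers in IL-4 cells with the block (0.00915%). At an unadjusted p under 0.05 there were, with the block, 3 carriers in control cells, 4 in IL-4 cells and 6 over both. These were 2.0%, 2.67% and 4.0% of the carriers, beside 1.25%, 1.73% and 2.04% of all genes. Without the block there were 0, 0 and 1, beside 0.247%, 0.384% and 0.476% of all genes. Without the block this was Slc25a37, which stood higher in Ern1f/fLyz2-Cre than in Ern1f/f of the same number and treatment in 4 of 4 comparisons, by 0.36 (95% confidence interval 0.16 to 0.55 with the block) at an adjusted p of 1. In control cells its difference was 0.46, and with IL-4 0.25. Slc36a2 was higher in Ern1f/fLyz2-Cre in 4 of 4 such comparisons as well, by 0.41 (95% confidence interval 0.17 to 0.65 with the block), and Slc6a12 lower in 4 of 4, with a difference of -0.31 (95% confidence interval -0.56 to -0.064 with the block). Neither was called. With the block the unadjusted p was under 0.05 in control cells for Slc25a37, Slc20a2 and Slc6a12, in IL-4 cells for Slc36a2, Slc33a1, Slc9a3r2 and Slc9a7, and over both for Slc25a37, Slc36a2, Slc6a12, Slc39a4, Slc43a3 and Slc33a1, genes singled out here after their values were seen.

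Other genes with the smallest p without the block had small differences. Over both treatments these were Slc45a3 (0.31), Slc38a9, a lysosomal arginine sensor (0.14), and Slc48a1 (0.15), and on the lower side Slc24a5 (-0.21), Slc39a7 (-0.19), the acetyl-CoA carrier Slc33a1 (-0.19) and Slc25a33 (-0.15). In control cells these were Slc45a3 (0.27), Slc25a30 (0.12) and Slc38a9 (0.15), and on the lower side Slc46a1 (-0.25), Slc24a5 (-0.31), Slc39a7 (-0.23) and Slc30a6 (-0.17). In IL-4 cells they were Slc30a6 (0.31), Slc48a1 (0.28), Slc25a17 (0.19) and Slc45a3 (0.34), and on the lower side Slc25a30 (-0.19), Slc25a43 (-0.24), Slc33a1 (-0.31) and Slc9a3r2 (-0.45). A p that misses the threshold with 2 libraries a group does not show that the genotypes are alike.

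The libraries numbered 1 and 2 were compared because the number parts them and the labels tie it to a genotype field. Slc13a3 was low in the libraries numbered 1, at 2.41 to 9.95 FPKM, and among the most abundant carriers in those numbered 2, and the zinc importer Slc39a4, the purine nucleoside carrier Slc28a2, Slc6a12 and Slc36a2 were also higher in number 2. The sodium-proton exchanger Slc9a7 of the trans-Golgi network, the amino acid exchanger Slc7a8 and Slc37a2 were lower. With the title group as a covariate, 62 of the 150 carriers were called (22 higher in number 2 and 40 lower, 41.3%), where 33.4% of all genes were called (10.1% higher and 23.3% lower). The median over all genes was -0.11, so a share of the lower calls moves with the scale. With median-ratio scaling the carriers split into 30 higher and 30 lower, and with quantile normalization into 28 and 26. Leaving out either library of a group dropped that group from the contrast, and the count was then 37 without Ern1f/f control 1 or 2, 39 without Ern1f/f IL-4 1 or 2, 37 without Ern1f/fLyz2-Cre control 1 or 2, 54 without Ern1f/fLyz2-Cre IL-4 1 and 55 without Ern1f/fLyz2-Cre IL-4 2. The number marks both the genotype field of the labels and the levels of fibroblast, B cell and T or NK cell markers given above, and what part any of these has in the differences was not tested.

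Slc13a3 (chr2:165405295-165473197) measured 9.95, 6.19, 6.61 and 2.41 FPKM in the libraries numbered 1 and 667, 431, 806 and 601 in those numbered 2, in the order Ern1f/f control, Ern1f/f IL-4, Ern1f/fLyz2-Cre control and Ern1f/fLyz2-Cre IL-4. Every library of number 2 lay far above those of number 1, the ratio of the means was 99.6, and the log2 difference was 6.51 (SE 0.26, adjusted p = 6.39e-05). IL-4 libraries were lower than their controls in all 4 pairs, with a difference of -0.70 (SE 0.26, adjusted p = 0.132 with the block and 0.952 without), which was not called. Its family partner Slc13a5 (chr11:72241994-72266604) went the other way, with 1.37, 0.877, 4.23 and 2.19 FPKM in the libraries numbered 1 and 0.00879, 0.0196, 0 and 0.0211 in those numbered 2. That gene entered the set through number 1 alone, so its direction was fixed by the rule and these values are a description, although it is counted among the 40 lower. Both carry intermediates of the citric acid cycle across the plasma membrane with sodium.

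Slc39a4 averaged 2.43 FPKM in number 1 and 20.9 in number 2, without overlap, a difference of 2.66 (SE 0.080, adjusted p = 2.42e-05). Slc28a2 (chr2:122426477-122461130), a sodium-coupled carrier of purine nucleosides, measured 2.9, 2.78, 2.38 and 2.49 FPKM in the libraries numbered 1 and 16.1, 9.71, 21.3 and 11.3 in those numbered 2, without overlap, a difference of 2.04 (SE 0.19, adjusted p = 0.00092). Slc6a12 averaged 3.49 and 16.7 FPKM, a difference of 1.98 (SE 0.10, adjusted p = 0.000175). Slc36a2 averaged 1.66 and 7.59 FPKM, with an overlap of the ranges, and differed by 1.60 (SE 0.10, adjusted p = 0.000272).

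Slc43a3, a purine nucleobase carrier, held 3.56, 3.39, 2.88 and 3.13 FPKM in the libraries numbered 1 and 8.9, 8.27, 7.26 and 6.76 in those numbered 2, steady within each number and apart between them, by 1.05 (SE 0.075, adjusted p = 0.00038). Smaller rises were those of Slc27a6 (0.79), Slc2a6 (0.69) and the mitochondrial dicarboxylate carrier Slc25a10 (0.64). Slc6a13 (0.94), Slc18a1 (0.87) and Slc4a3 (0.68) also passed the threshold, but lay under a mean of 1 FPKM in number 1 and entered the set through number 2, so their direction was fixed by the rule. The locus of Slc18a1, a vesicular amine carrier, shares 487 bases with Atp6v1b2, a gene of 323 FPKM, and its value is uncertain. In all, 7 carriers lay under a mean of 1 FPKM in one of the numbers, and 5 of them are among the 62: these 3, Slc9a3r2 and Slc13a5.

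On the lower side, Slc9a7 measured 13.6, 11.6, 14 and 6.19 FPKM in the libraries numbered 1 and 3.91, 4.75, 4.0 and 3.5 in those numbered 2, without overlap, with a difference of -1.24 (SE 0.16, adjusted p = 0.00284). Slc7a8 measured 49.3, 44.7, 54.7 and 40.6 FPKM in the libraries numbered 1 and 21.3, 26.7, 16.9 and 19.6 in those numbered 2, also apart, with a difference of -1.14 (SE 0.15, adjusted p = 0.00284). Slc37a2 averaged 104 FPKM in number 1 and 51.8 in number 2, a difference of -1.0 (SE 0.15, adjusted p = 0.00457), and Slc26a11 16.1 and 6.7 FPKM, a difference of -1.10 (SE 0.12, adjusted p = 0.00152). Slc46a3 (-0.71), the phosphate carrier Slc20a2 (-0.63), the sodium-calcium exchanger Slc8a1 (-0.62), Slc43a2 (-0.60), the sugar carrier Slc50a1 (-0.60), the choline carrier Slc44a1 (-0.59) and Slc12a4 (-0.56) were lower too. By cargo, the zinc carriers had 2 higher and 4 lower of 16 and the sugar families 3 and 5 of 12, the same with median-ratio scaling. Of all genes, 10.1% were higher and 23.3% lower, and after that scaling 1666 and 1776 of 10916 were. Mitochondrial carriers had 4 higher and 3 lower of 33 with a median of -0.037, and 7 and 2 with a median of 0.052 after that scaling. Ion exchangers had 1 and 7 of 19 (3 and 6 after scaling), vitamin and choline carriers 1 and 5 of 9 (3 and 3), and amino acid families 4 and 5 of 21 (4 and 4). Under median-ratio scaling Slc43a2 and Slc44a1, at -0.50 and -0.49, were no longer called, nor under quantile normalization (adjusted p = 0.0734 and 0.0715) or with no filter on low values (0.097 and 0.103). With no filter, Slc46a3 lost the call too (0.0562). The calls of Slc43a2, Slc44a1 and Slc46a3 were also lost without some single libraries, Slc43a2 and Slc44a1 without either Ern1f/f control, either Ern1f/f IL-4 or either Ern1f/fLyz2-Cre control library (-0.46 to -0.64), and Slc46a3 without either Ern1f/f control or Ern1f/fLyz2-Cre control 2 (-0.55 to -0.62).

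**Figure D5:**
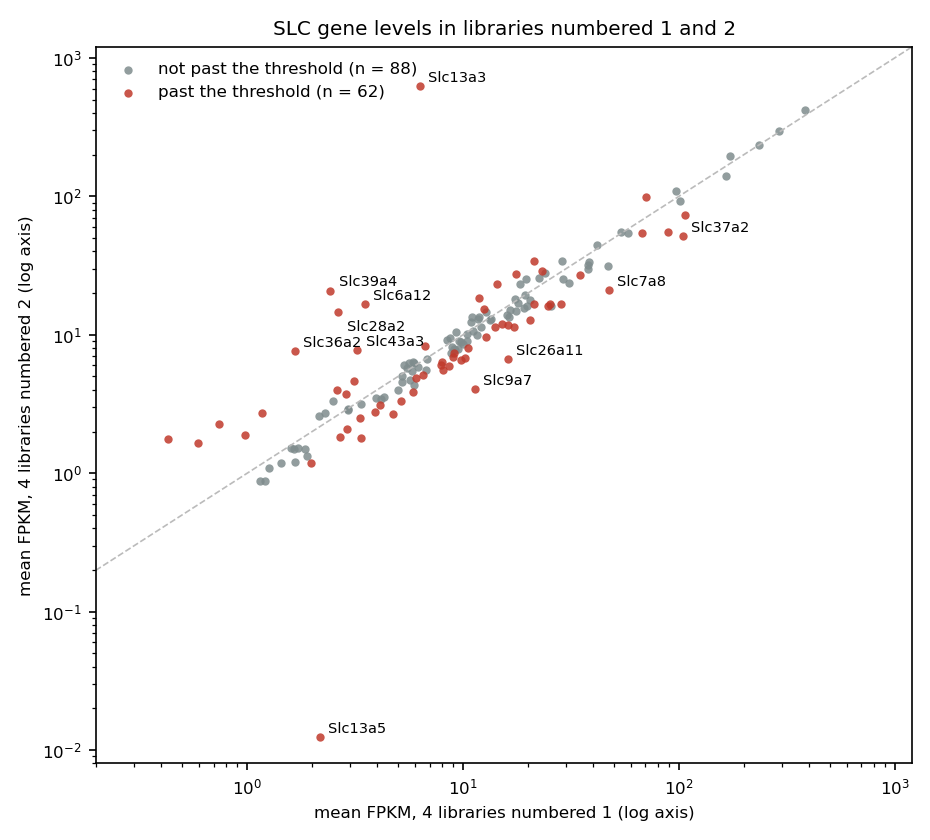
Mean FPKM in the 4 libraries numbered 1 (x axis) and the 4 numbered 2 (y axis), both logarithmic, for each of the 150 genes (points); red marks the 62 genes past the threshold and the dashed line marks equal levels. Slc13a3 lies far above the line and Slc13a5 far below it, while Slc25a5, Slc15a3 and Slc25a3 lie close to it.

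Responses to IL-4 were also set side by side in the replicate numbers, a comparison added after the values were seen. Slc39a8, Slc9a9 and Slc46a3 had larger negative differences in number 1, and Slc28a2 and Slc6a13 in number 2, but none of these contrasts passed the threshold. Slc6a13 lay under a mean of 1 FPKM in number 1, where the scale compresses a difference, and entered the set through number 2. Its contrast is therefore a description. In a fit of treatment by number, the 2 libraries of each group were 1 of each title genotype. Title genotypes therefore served as replicates, and their differences entered the spread behind its p-values, SE and intervals. Limma then called 44 carriers in number 1 (14 higher and 30 lower), where 20.7% of all genes were called (8.58% higher and 12.1% lower). In number 2 it called 24 (13 higher and 11 lower), where 11.6% of all genes were (5.3% and 6.34%). The difference between the responses was called for 0 of the 150 carriers, where 0.969% of all genes were called. At an unadjusted p under 0.05 there were 26 carriers (17.3%), beside 17.5% of all genes. Across the 150 genes the responses had a Pearson r of 0.73, as a description over genes that share their libraries.

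The smallest adjusted p belonged to Slc39a8, whose IL-4 difference was -0.87 in number 1 and -0.21 in number 2, with 0.66 (SE 0.13, 95% confidence interval 0.35 to 0.96, adjusted p = 0.0697) between them. Slc9a9, an endosomal sodium-proton exchanger, measured 33.3 and 15.7, 15.7 and 13, 37.2 and 16.3, and 17.4 and 18.2 FPKM, a difference of -1.09 and -0.10, with 0.99 (SE 0.21, 95% confidence interval 0.50 to 1.47, adjusted p = 0.083) between them. The lysosomal carrier Slc46a3 had -0.66 and 0.051, and the copper importer Slc31a1 -0.41 and 0.16. In the other direction Slc28a2 had -0.00071 and -0.77, Slc25a39 0.19 and -0.29, and Slc1a5 1.08 and 0.66. Slc6a13, low in number 1 as said above, had 0.33 and -0.45. Among the 34 genes called for IL-4 with the block, 23 had the larger difference in number 1, as had 86 of all 150. Of the 34, 15 were also called between the numbers, beside 62 of the 150.

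Promoter sequences are shown for genes that carried these differences, to set the letters before their starts beside their values. RefSeq windows of 300 bases (250 before and 50 after the annotated start, GRCm38.p6) were found for 114 of the 150 genes. The motifs searched, on both strands, were TTC and GAA with any 4 bases between them and TTCNNNGAA, the spaced sites that STAT factors bind, STAT6 among them, CACGTGAC, part of the element bound by the lysosomal regulator TFEB, and TTGCATCA, an amino acid response element. The first lay in 6 of the 114 windows (5.26%, beside 8.01% of 27025 genes), TTCNNNGAA in 5 (4.39% beside 9.55%), CACGTGAC in 9 (7.89% beside 2.55%) and TTGCATCA in 3 (2.63% beside 1.03%). The first pair can overlap each other in a sequence. The 27025 genes were not limited to expressed ones, while the 150 were chosen by FPKM. What part this has in the shares was not tested. A match describes letters only, not a site that a factor uses, and the lack of one says only that these letters are not in the window.

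The 250 bases before the start of Slc30a4, the carrier with the largest IL-4 difference on the scale of the test, held none of the 4 motifs. Those of Slc13a3, with the largest difference between the numbers, held none either. Sequences run 5′ to 3′ on the strand of the gene.
Slc30a4, chr2:122702664-122702913, - strand: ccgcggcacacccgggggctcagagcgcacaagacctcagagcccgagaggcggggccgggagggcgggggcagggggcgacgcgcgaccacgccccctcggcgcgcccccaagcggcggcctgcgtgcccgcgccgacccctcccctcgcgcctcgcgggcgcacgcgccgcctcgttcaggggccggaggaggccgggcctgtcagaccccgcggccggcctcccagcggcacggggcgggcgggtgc
Slc13a3, chr2:165473198-165473447, - strand: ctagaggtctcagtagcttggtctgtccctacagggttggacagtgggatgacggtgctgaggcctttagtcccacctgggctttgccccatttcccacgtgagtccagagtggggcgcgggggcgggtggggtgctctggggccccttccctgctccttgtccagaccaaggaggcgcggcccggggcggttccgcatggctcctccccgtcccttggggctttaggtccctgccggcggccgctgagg

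Stretches around a match, with the match in capitals, are given for Slc39a10, higher with IL-4, and for Slc28a2, which held both spacings. Slc28a2 was not called for IL-4: its difference over all 8 libraries was -0.38 with the block. The value of -0.77 was that of number 2 alone. Slc43a2, lower with IL-4, also held a match with 4 bases between, which is not shown because it lies inside the gene's locus in the deposited tables. The RefSeq start of Slc39a10 lies upstream of the locus in the deposited tables (chr1:46807544-46853509).
Slc39a10, chr1:46925825-46925883, - strand: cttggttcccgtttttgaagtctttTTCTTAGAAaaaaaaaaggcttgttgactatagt
Slc28a2, chr2:122426209-122426268, + strand: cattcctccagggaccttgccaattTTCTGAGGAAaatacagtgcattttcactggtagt
Slc28a2, chr2:122426284-122426342, + strand: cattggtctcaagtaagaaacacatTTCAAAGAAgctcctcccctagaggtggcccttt

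CACGTGAC, on the other strand GTCACGTG, lay before 3 genes called for IL-4, the higher Slc25a13 and Slc37a3, shown here, and the lower Slc25a33. TTGCATCA, on the other strand TGATGCAA, lay before 1, the lower Slc7a7.
Slc25a13, chr6:6217268-6217325, - strand: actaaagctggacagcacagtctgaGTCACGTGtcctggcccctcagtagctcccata
Slc37a3, chr6:39377708-39377747, - strand: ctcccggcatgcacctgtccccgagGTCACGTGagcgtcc
Slc7a7, chr14:54417913-54417952, - strand: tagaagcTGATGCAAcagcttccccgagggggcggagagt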

How the data were processed

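RNA of 8 cultures was sequenced with Illumina protocols, per the labels. The authors aligned reads to mm10 and deposited Cufflinks FPKM per gene with confidence limits, and the submitters' processing notes name TopHat 1.4.1 and Cufflinks 1.3.0. The gene models, strand setting and handling of multi-mapped reads are not given in the sources used here. Each table held 23838 lines and 23354 symbols, and lines of one symbol were summed. In 192 symbols a library carried a status other than OK, and these were kept. Read counts were not used here, so precision is given as the distance from an FPKM to the authors' confidence limits, which covers counting and assignment only.

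The 10934 genes that reached 1 FPKM in 2 or more libraries were fitted on log2(FPKM + 1) with limma 3.58.1 under R 4.3.3. The test was two-sided with a mean-variance trend, and p-values were adjusted over all genes by Benjamini-Hochberg, with a threshold of 0.05. All 150 carriers passed this filter. Means of the 4 title groups were fitted without a block, and again with the replicate number as a block. The numbers paired the libraries: deviations from group means of same-numbered libraries correlated at 0.688 to 0.827 over 6 pairs of groups, and the first principal component, with 59% of the variance, parted the numbers. The labels do not say what the number marks. Every adjusted p in the text is from limma, and SE is the standard error of the log2 difference.

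Up to 12 higher and 12 lower carriers with the largest difference among those past the threshold in either fit were named per comparison, or 4 and 4 with the smallest p where none passed. To these came the top gene of each family of at least 3, the 10 highest genes and 3 genes on each side of the limit of 1 FPKM. Some items that the counts include are not reported here by name. The carriers, lists and tests were chosen with earlier results of these data known. Alternatives were other pseudocounts (0.1 and 5), filters, scalings, groups by the genotype field and leaving out each library. The fits were tested on simulated data. Promoter windows came from RefSeq (GRCm38.p6), and plots were made in matplotlib 3.10.9 under Python 3.11.15.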

Additional observations from a re-analysis of the deposited data

How the results depend on the processing

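The count of carriers called for IL-4 rested on the replicate block. Over both genotypes it was 1 without the block and 34 with it. Without the block it was 2 with genes of a mean of at least 5 FPKM, 3 with median-ratio scaling and 3 with quantile normalization. With groups from the genotype field, where the title genotypes serve as replicates, it was 63. With the replicate block it was 37 with pseudocount 0.1, 30 with pseudocount 5, 38 with median-ratio scaling, 37 with quantile normalization and 30 with a mean of at least 5 FPKM. Leaving out 1 library gave 0 to 1 without the block, and with it 11, 14, 15, 12, 13, 15, 24 or 18. In Ern1f/f the count of 0 became 6 with the block and 1 with median-ratio scaling, and with the block and 1 library left out 0 to 6 (0, 1, 2 or 6). In Ern1f/fLyz2-Cre the count of 0 became 9 with the block, 1 with median-ratio scaling and 1 with quantile normalization, and with the block and 1 library left out 0 to 7 (0, 2, 6 or 7). The cause of these changes was not tested. Fits without a library have fewer samples. The replicate block changed no call of the genotype comparisons or the interaction, at 0 carriers in every alternative. Between the numbers the count of 62 ran from 37 to 55 without 1 library, was 46 with no filter and 42 with a mean of at least 5 FPKM, and gave 28 higher and 26 lower with quantile normalization. In 4 of 4 pairs, 34 carriers were higher and 53 lower after median-ratio scaling, beside 29 and 44.

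Values of single named genes for IL-4 were set against the fit without the block, where Slc30a4 alone was called. The alternatives include the fits with the block. Of 762 values, 500 kept direction and side of the threshold, which for genes other than Slc30a4 means still not called. Another 255 passed it newly, 5 lost it and 2 turned: Slc6a12 without the block at -0.094 without Ern1f/f control 1 and -0.0031 without Ern1f/f IL-4 2, where the highest value without 1 library was 1.06. Of 400 values between the numbers, 378 kept both and 22 lost the call. With 2 libraries a group and no read counts, a carrier that was not called is not shown to be unchanged, and low carriers such as Slc6a13 had the widest confidence limits.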
